A study of Mus musculus with 16 samples.

Results

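Expression of 8 genes of plasmacytoid and conventional dendritic cells, Siglech, Spib, Irf8, Tcf4, Flt3, Zbtb46, Batf3 and Cd209a, was examined in cells of the mouse knee joint after injury to the anterior cruciate ligament (ACL), in wildtype (WT) mice and in mice that lack Trem2, a receptor of macrophages and other myeloid cells. The genes were taken by name from the deposited table. All 8 were among its 13733 genes, and all 8 were among the 13173 genes tested, those that reached 1 CPM in 4 or more libraries. CPM is the read count of a gene set relative to library size, here scaled between libraries by the authors. The list was chosen by measured values, with the difference between injured Trem2-/- and injured WT joints in view, in which Siglech and Spib were among the genes that fell most. That difference is therefore described below without a test.

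The 16 libraries form 4 groups of 4. WT mice were C57BL/6 and Trem2-/- mice were C57BL/6J-Trem2em2Adiuj/J, a germline knockout allele, and the study's methods give all mice as male. Injured mice (D7) received a single tibial compression of the knee at 10 weeks of age, were given buprenorphine and were sampled 7 days later, while D0 mice were not injured. The labels disagree on the material, since another label gives 16 weeks of age and whole joints homogenized from control and diabetic (T1DM) mice, while the methods describe cells freed from the joint by collagenase. For the bulk cells the methods refer back to the single-cell preparation, in which magnetic beads against CD45 separated immune cells from the rest, and they do not say which fraction, or whether both, gave the bulk RNA. No source says whether a library holds 1 mouse or several, so p-values measure only the spread between these libraries. Trem2 itself lay between 2.51 and 5.61 CPM in WT D0, between 10.7 and 22.5 in WT D7, between 0.948 and 2.68 in Trem2-/- D0 and between 3.42 and 4.84 in Trem2-/- D7. The knockout libraries still carried Trem2 reads, and at D7 they did not overlap the WT libraries.

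Dendritic cells take up and present antigen to T cells. Their progenitors carry the receptor Flt3. The plasmacytoid kind releases type I interferon and is specified by the E protein Tcf4 with Spib and Irf8. The conventional kinds express Zbtb46 and divide into cDC1, which need Irf8 and Batf3, and cDC2. Several of these genes are not private to dendritic cells: Spib and Irf8 are expressed by B cells, Irf8 also by monocytes, and Tcf4 and Zbtb46 also by endothelial or connective tissue cells. The study's single-cell data also show Tcf4 in macrophage subtypes. In bulk RNA, fewer cells of a type and less RNA per cell cannot be told apart.

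The sequences upstream of 4 of the genes are shown, because these are the genes whose D0 and D7 libraries did not overlap in either genotype and on which the injury result rests. Each run is the 250 bases before the RefSeq start in GRCm38.p6, in lower case, with any match to a searched motif in capitals.
Siglech, chr7:55767934-55768183, plus strand: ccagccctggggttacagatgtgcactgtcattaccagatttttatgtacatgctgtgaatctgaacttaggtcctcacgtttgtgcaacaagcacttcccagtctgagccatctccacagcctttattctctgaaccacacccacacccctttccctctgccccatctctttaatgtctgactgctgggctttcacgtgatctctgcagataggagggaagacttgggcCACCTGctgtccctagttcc
Spib, chr7:44532072-44532321, minus strand: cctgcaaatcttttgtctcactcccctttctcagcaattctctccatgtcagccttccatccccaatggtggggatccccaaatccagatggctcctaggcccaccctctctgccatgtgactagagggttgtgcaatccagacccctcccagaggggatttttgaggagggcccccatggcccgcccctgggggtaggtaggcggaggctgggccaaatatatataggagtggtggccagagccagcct
Irf8, chr8:120736108-120736357, plus strand: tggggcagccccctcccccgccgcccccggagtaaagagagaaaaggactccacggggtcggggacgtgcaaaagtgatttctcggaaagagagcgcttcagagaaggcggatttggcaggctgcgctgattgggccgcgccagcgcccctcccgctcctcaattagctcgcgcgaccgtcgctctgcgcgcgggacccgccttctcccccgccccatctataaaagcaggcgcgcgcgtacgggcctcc
Cd209a, chr8:3748985-3749234, minus strand: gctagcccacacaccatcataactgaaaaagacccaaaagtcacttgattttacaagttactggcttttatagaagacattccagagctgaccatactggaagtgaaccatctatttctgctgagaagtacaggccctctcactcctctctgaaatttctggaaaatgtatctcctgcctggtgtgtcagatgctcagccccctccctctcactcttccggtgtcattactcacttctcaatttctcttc
In the 7 genes with a RefSeq promoter in the table used (8 promoters, since Irf8 has 2; Tcf4 had no entry), 4 motifs were searched on both strands. The composite element of ETS and IRF factors (GGAA, 2 bases of any kind, GAAA), the interferon stimulated response element (GAAA, 2 bases of any kind, GAAA), which differs from the composite element in 1 letter, and the PU.1 and Spi-B site (GAGGAAGT) were found in none of the 8, against 2.3%, 2.98% and 2.44% of 32851 promoters. The E-box CAGGTG, which E proteins bind, lay 20 bases before the start of Siglech, 238 bases before that of Zbtb46 and 205 bases before the second start of Irf8, and 17.2% of all promoters hold it. The starts used for Zbtb46 and Batf3 and the second start of Irf8 lie inside the annotated spans of these genes, not at their ends. These are matches of letters and not binding sites.

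After injury 5 of the 8 genes fell and 1 rose, when D7 was compared with D0 as the average over both genotypes (limma 3.58.1 on log2(CPM + 1), Benjamini-Hochberg adjusted p under 0.05 over all 13173 genes). Siglech, Spib, Irf8, Flt3 and Cd209a were lower and Tcf4 was higher, while Zbtb46 and Batf3 did not pass. The injury changed most of the transcriptome: 32.3% of all genes tested were called lower and 29.1% higher, so a call by itself sets no gene apart. The median log2 fold change was -1.05 over the 8 genes and -0.05 over all genes. By the rule of the study's methods, an unadjusted p under 0.05 with a minimum fold change, the counts were again 5 and 1, against 27.2% and 25.5% of all genes. The leukocyte content of the libraries moved in the same direction: the summed level of 6 general leukocyte markers was 2678 to 5222 CPM in WT D0, 1514 to 3335 in WT D7, 3322 to 5729 in Trem2-/- D0 and 1197 to 1501 in Trem2-/- D7, and all 6 markers fell, Ptprc (CD45) among them (median log2 fold change -1.30). Set against the mean of these 6 markers in the same library, 0 of the 8 genes were called lower and 3 (Tcf4, Zbtb46 and Batf3) were called higher, against 0.304% and 92.3% of all genes, since this reference moves every gene. On that scale the median of all genes was 1.33 above 0, so that Irf8 (0.24), Flt3 (0.24), Cd209a (0.41) and Zbtb46 (1.26) had positive differences. Relative to that median, Spib was at -1.78, Siglech at -1.74, Flt3 at -1.09, Irf8 at -1.09 and Cd209a at -0.91. Zbtb46 was at -0.07, Batf3 at 0.29 and Tcf4 at 0.57. The reference shifts all genes of a library alike, so the values relative to that median only restate the CPM differences from the all-gene median. They carry no information on leukocyte content. The part of leukocyte content in the falls was not tested further.

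**Figure D1:**
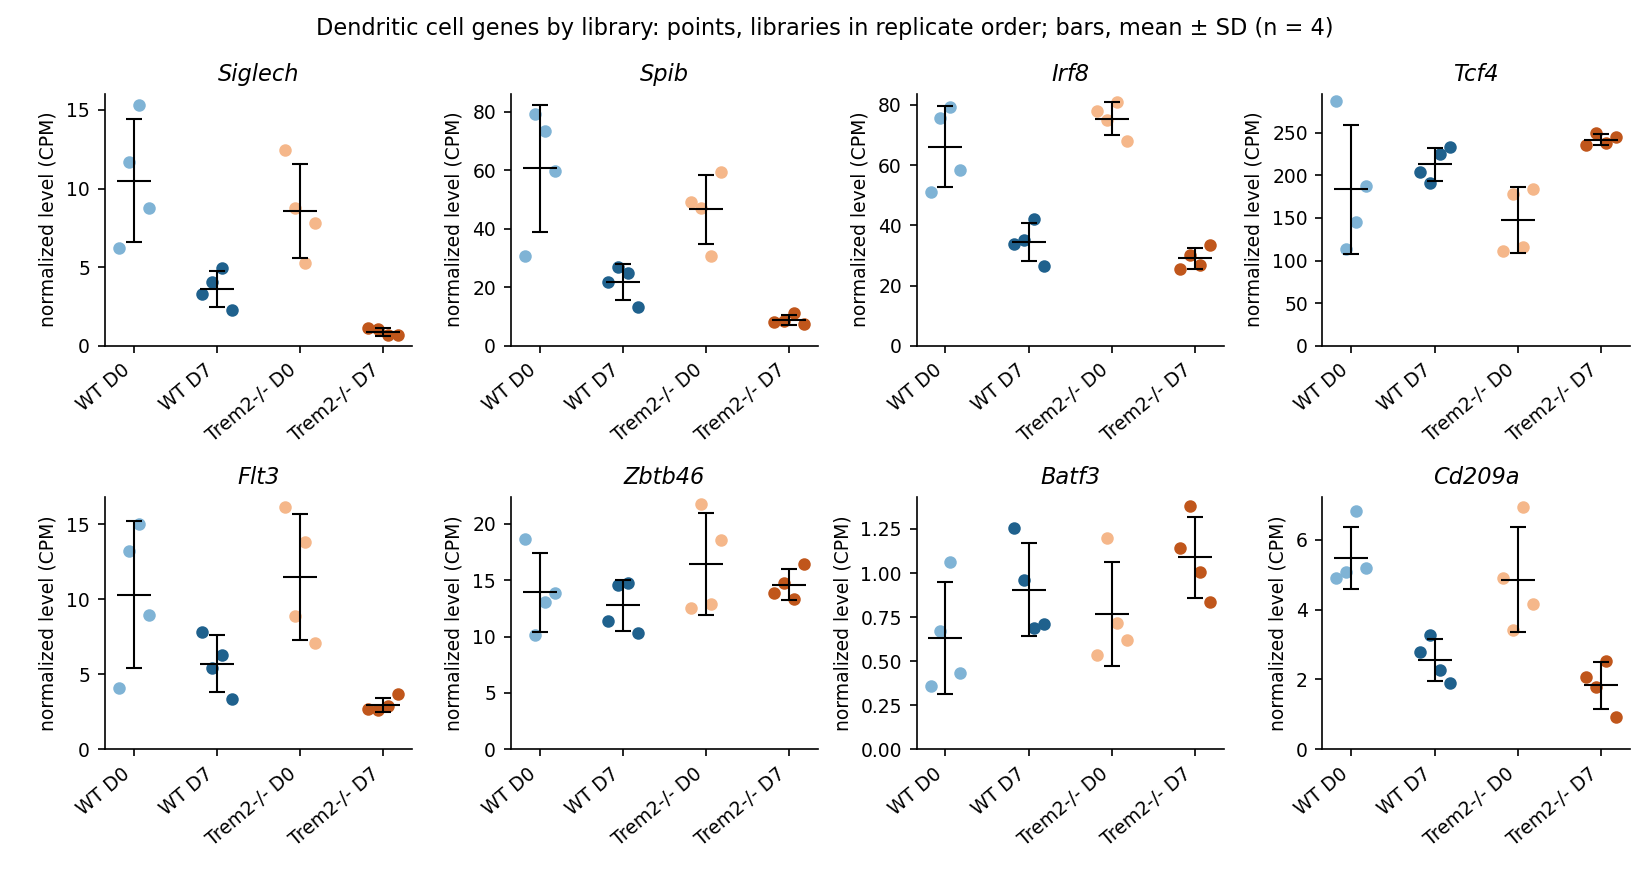
Normalized level (CPM, linear axis from 0) of the 8 genes in each of 16 libraries, as points in replicate order within the 4 groups, with the mean and SD as bars (n = 4). Siglech, Spib, Irf8 and Cd209a are lower in every D7 library than in every D0 library, and Siglech is lowest in Trem2-/- D7, between 0.667 and 1.11.

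Siglech encodes a sialic acid-binding receptor of the surface of plasmacytoid dendritic cells and is their most used mouse marker. The gene lies on chromosome 7 (GRCm38, 55768178 to 55778925, plus strand). In WT its level was 6.21, 11.7, 15.3 and 8.77 CPM at D0 and 3.27, 4.08, 4.93 and 2.26 at D7. In Trem2-/- it was 12.4, 8.78, 5.25 and 7.80 CPM at D0 and 1.11, 1.10, 0.672 and 0.667 at D7. Every D7 library was below every D0 library, which held for 6.23% of all genes in this direction and for 10.7% in the other, and the Trem2-/- D7 libraries were the 4 lowest. Averaged over genotypes, the log2 fold change was -1.79 (SE 0.19, limma adjusted p = 3.27e-06). It was -1.28 (SE 0.26, limma adjusted p = 0.00376) in WT and -2.30 (SE 0.26, limma adjusted p = 2e-05) in Trem2-/-. The mean level was 2.89 times as high at D0 as at D7 in WT and 9.65 times as high in Trem2-/-, a larger ratio than the log2(CPM + 1) scale shows for a gene near 1 CPM. The Trem2-/- D7 values rest on 8 to 33 reads per library, and they are among the values that put Siglech forward. The WT D7 values are among them as well, so the p-values of Siglech within a genotype are a description.

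Spib, on chromosome 7 as well (44525993 to 44532071, minus strand), encodes the ETS factor Spi-B, which acts in plasmacytoid dendritic cells and in B cells. It stood at 30.6, 79.4, 73.3 and 59.9 CPM in WT D0 and at 21.9, 27.1, 25.0 and 13.2 in WT D7. The Trem2-/- libraries held 49.3, 47.3, 30.8 and 59.4 CPM at D0 and 8.03, 8.41, 11.3 and 7.42 at D7. As for Siglech, the D0 and D7 libraries did not overlap, and the 4 lowest values were all Trem2-/- D7. The averaged log2 fold change of Spib was -1.83 (SE 0.20, limma adjusted p = 4.54e-06), with -1.40 (SE 0.28, limma adjusted p = 0.00344) in WT and -2.26 (SE 0.28, limma adjusted p = 2.96e-05) in Trem2-/-. The D7 values of both genotypes are among those that put Spib forward, so its p-values within a genotype are a description.

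Tcf4, the E protein that sets and maintains the plasmacytoid fate, lies on chromosome 18 (69343356 to 69689079, plus strand) and moved the other way. Its level was 287, 114, 145 and 187 CPM in WT D0 and 203, 190, 225 and 233 in WT D7. Trem2-/- libraries gave 111, 178, 116 and 184 CPM at D0 and 235, 250, 237 and 245 at D7. In Trem2-/- every D7 library was above every D0 library, whereas in WT the highest value of all was that of a D0 library, replicate 1. The averaged log2 fold change was 0.52 (SE 0.16, limma adjusted p = 0.0109). In Trem2-/- it was 0.75 (SE 0.23, limma adjusted p = 0.0121), while in WT it was 0.30 (SE 0.23, limma adjusted p = 0.334), with a 95% interval from -0.19 to 0.78. Without WT D0 replicate 1 the WT value was 0.54 and passed (limma adjusted p = 0.0374).

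Irf8, which the cDC1 and plasmacytoid lines need and which monocyte progenitors and B cells also express, lies on chromosome 8 (120736358 to 120756694, plus strand). In WT it measured 51.1, 75.5, 79.3 and 58.5 CPM at D0 and 33.8, 35.2, 42.1 and 26.6 at D7. In Trem2-/- it measured 78.1, 74.9, 80.8 and 67.9 CPM at D0 and 25.5, 30.3, 26.9 and 33.5 at D7. No D7 value reached the lowest D0 value, 51.1 CPM, and at D7 the genotypes overlapped. The averaged log2 fold change was -1.13 (SE 0.11, limma adjusted p = 1.86e-06), the smallest standard error of the 8 genes. In WT it was -0.92 (SE 0.15, limma adjusted p = 0.00127) and in Trem2-/- it was -1.35 (SE 0.15, limma adjusted p = 1.82e-05).

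Flt3, the receptor tyrosine kinase through which dendritic cell progenitors receive their growth signal, lies on chromosome 5 (147330741 to 147400489, minus strand). WT D0 libraries held 4.06, 13.2, 15.0 and 8.93 CPM and WT D7 libraries 7.80, 5.44, 6.31 and 3.33. Trem2-/- D0 libraries held 16.1, 8.91, 13.8 and 7.11 CPM and Trem2-/- D7 libraries 2.69, 2.62, 2.86 and 3.67. The Trem2-/- groups were apart, but in WT the lowest D0 value, again replicate 1, lay inside the D7 range. Flt3 fell on average over genotypes (log2 fold change -1.14, SE 0.23, limma adjusted p = 0.000653) and in Trem2-/- (-1.60, SE 0.33, limma adjusted p = 0.000899). In WT the value was -0.67 (SE 0.33, limma adjusted p = 0.130), and without WT D0 replicate 1 it was -1.01 and passed (limma adjusted p = 0.0121).

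Cd209a, a C-type lectin of the DC-SIGN family found on monocyte-derived dendritic cells and cDC2, lies on chromosome 8 (3743397 to 3748984, minus strand). The WT values were 4.90, 5.07, 6.80 and 5.17 CPM at D0 and 2.79, 3.29, 2.28 and 1.90 at D7. The Trem2-/- values were 4.91, 3.41, 6.92 and 4.17 CPM at D0 and 2.08, 1.79, 2.52 and 0.917 at D7. D0 and D7 did not overlap over both genotypes, although the gap was narrow, from 3.29 to 3.41 CPM. The averaged log2 fold change was -0.96 (SE 0.15, limma adjusted p = 6.19e-05), with -0.87 (SE 0.21, limma adjusted p = 0.00818) in WT and -1.05 (SE 0.21, limma adjusted p = 0.000721) in Trem2-/-.

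Zbtb46 encodes a zinc finger factor of conventional dendritic cells, which endothelium also expresses, and lies on chromosome 2 (181387762 to 181459426, minus strand). Its levels were 18.6, 10.1, 13.1 and 13.8 CPM in WT D0 and 11.4, 14.6, 14.8 and 10.3 in WT D7. They were 12.5, 21.8, 12.9 and 18.5 CPM in Trem2-/- D0 and 13.9, 14.7, 13.3 and 16.4 in Trem2-/- D7. All 4 groups overlapped, and WT D0 replicate 1 was the highest of its group. The averaged log2 fold change was -0.11 (95% interval -0.41 to 0.18, limma adjusted p = 0.484), so no change of Zbtb46 was detected and an exact standstill is not shown. The 4 endothelial markers, among them Pecam1 (log2 fold change 0.13, SE 0.19, limma adjusted p = 0.566), gave 0 calls under the adjusted threshold and 0 at an unadjusted p under 0.05. Of all genes, 32.3% were called lower and 29.1% higher after adjustment.

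Batf3, the leucine zipper factor that cDC1 require, lies on chromosome 1 (191097847 to 191108945, plus strand) and was the scarcest of the 8. Its levels were 0.359, 0.669, 1.06 and 0.436 CPM in WT D0 and 1.254, 0.963, 0.689 and 0.713 in WT D7. They were 0.538, 1.20, 0.716 and 0.618 CPM in Trem2-/- D0 and 1.14, 1.38, 1.01 and 0.834 in Trem2-/- D7. D0 and D7 overlapped in both genotypes, and the lowest library held 6 reads of it. The averaged log2 fold change was 0.24 (95% interval -0.0038 to 0.49, limma adjusted p = 0.0804), and Batf3 passed when either WT D0 replicate 3 or Trem2-/- D0 replicate 2 was left out. At this low level the fitted value depends on the pseudocount: it was 0.50 with a pseudocount of 0.1, 0.49 with edgeR, 0.52 with voom and 0.51 with DESeq2, and did not pass under any of these (adjusted p from 0.0682 to 0.102).

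Within each genotype the counts of calls differed for Flt3 and Tcf4. In WT 4 of the 8 genes were lower and 0 higher at D7, against 12.6% and 15.9% of all genes, and 0 of the 8 were higher at an unadjusted p under 0.05. In Trem2-/- 5 were lower and 1 higher, against 27.2% and 26% of all genes. Counted by libraries that did not overlap, 4 genes were lower and 0 higher in WT, against 9.34% and 12.9% of all genes, and 5 were lower and 1 higher in Trem2-/-, against 26.3% and 26.1%. Each of these comparisons uses D7 libraries of the genotype difference that put Siglech and Spib forward, and the WT and Trem2-/- injury comparisons also share one estimate of the spread. For Siglech and Spib that choice favours a larger fall in Trem2-/- and a smaller fall in WT. Their p-values within a genotype are therefore a description. The difference between the genotypes' injury responses contains the D7 difference and was not tested: fitted as the Trem2-/- response minus the WT response, it was -1.02 (SE 0.37) for Siglech, -0.93 (SE 0.46) for Flt3, -0.86 (SE 0.40) for Spib, -0.43 (SE 0.22) for Irf8, -0.18 (SE 0.29) for Cd209a, -0.03 (SE 0.27) for Zbtb46, 0.02 (SE 0.23) for Batf3 and 0.45 (SE 0.32) for Tcf4. The pseudocount compresses the value of Siglech, which was -1.62 with a pseudocount of 0.1, -1.69 with voom and -1.71 with edgeR and DESeq2.

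**Figure D2:**
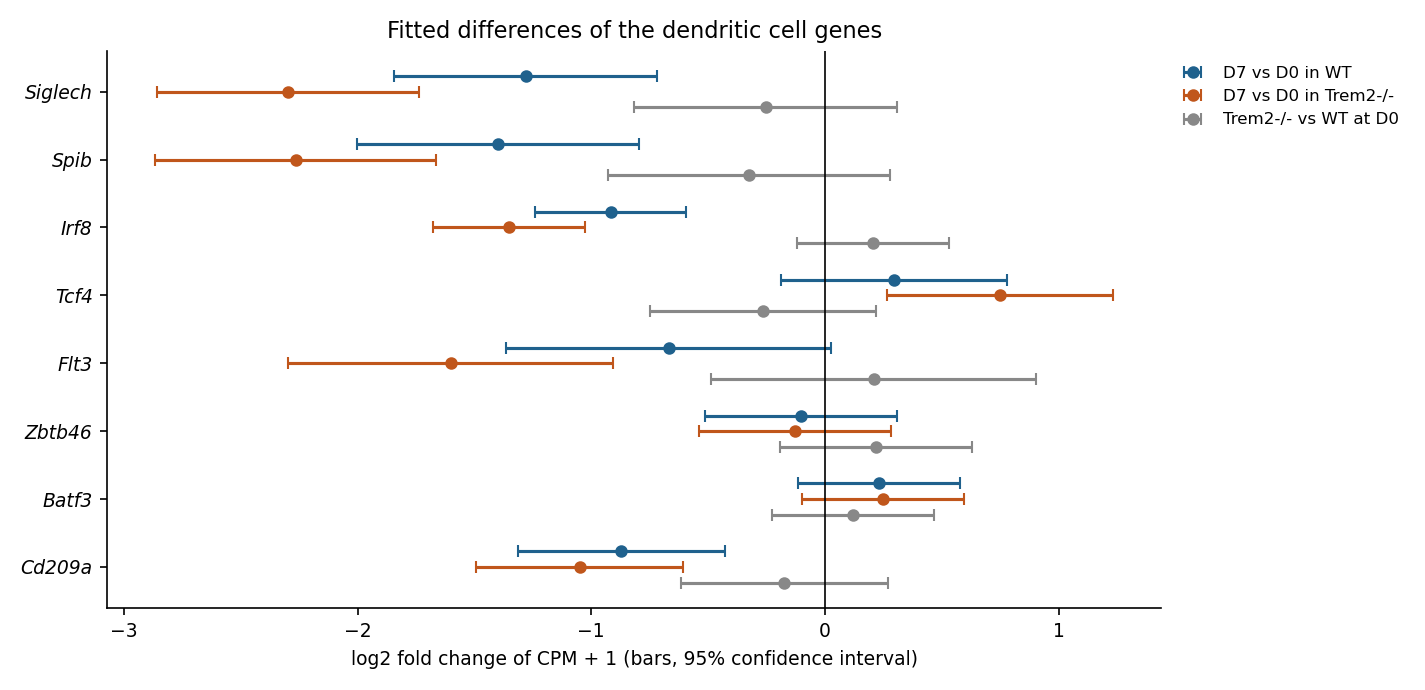
Fitted log2 fold changes of CPM + 1 for the 8 genes with 95% confidence intervals, for D7 vs D0 in WT, D7 vs D0 in Trem2-/- and Trem2-/- vs WT at D0. The injury intervals of Siglech, Spib, Irf8 and Cd209a lie below 0 in both genotypes, and all 8 intervals of the genotype difference at D0 include 0.

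In uninjured joints, with all 16 libraries in the fit, no difference between the genotypes was detected for any of the 8 genes. With limma, 0 of the 8 passed after adjustment, 0 had an unadjusted p under 0.05, and edgeR, voom and DESeq2 on the recovered reads also called 0 of the 8. Of all genes 0 passed with limma, 0% of those tested, and 385 had an unadjusted p under 0.05. The log2 differences ran from -0.32 for Spib (95% interval -0.93 to 0.28) to 0.22 for Zbtb46 (95% interval -0.19 to 0.63), and Siglech was at -0.25 (95% interval -0.82 to 0.31). The widest interval was that of Flt3, from -0.49 to 0.91, and the narrowest that of Irf8, from -0.12 to 0.53. All 8 genes overlapped between the genotypes at D0, as did most others, since 0.539% of all genes lay apart in the lower and 0.44% in the higher direction. The D0 result for Spib depended on WT D0 replicate 1. Without that library Spib was at -0.62 (SE 0.24) and Siglech at -0.46 (SE 0.26), while Zbtb46 was at 0.36 (SE 0.19). None of the 8 passed after adjustment in that fit, but Spib alone met the unadjusted threshold. A lower level of Spib in Trem2-/- before injury is therefore not excluded.

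In injured joints, Siglech and Spib were lower and Tcf4 was slightly higher in each of the Trem2-/- libraries than in any WT library. These values put the list forward and carry no test. Of all genes tested, 4.78% had non-overlapping groups in the lower and 3.55% in the higher direction at D7. The mean of Siglech was 3.63 ± 1.14 CPM (SD, n = 4) for WT libraries, against 0.888 ± 0.252 (SD, n = 4) for Trem2-/- libraries. Spib had means of 21.8 ± 6.08 (SD, n = 4) and 8.78 ± 1.70 (SD, n = 4). Fitted log2 differences were -1.27 (SE 0.26) for Siglech, -1.19 (SE 0.28) for Spib, -0.72 (SE 0.33) for Flt3, -0.35 (SE 0.21) for Cd209a, -0.23 (SE 0.15) for Irf8, 0.14 (SE 0.16) for Batf3, 0.19 (SE 0.23) for Tcf4 and 0.19 (SE 0.19) for Zbtb46. For Siglech the difference was -1.90 with a pseudocount of 0.1, -1.99 with voom and -2.01 with edgeR and DESeq2. Batf3, whose groups overlapped, was at 0.26 with the smaller pseudocount and at 0.30 to 0.34 with the count models. The gap of Tcf4 was between 232.6 and 235.4 CPM. Relative to the 6 leukocyte markers, on a scale where the median of all genes was 0.69 above 0, the differences were -0.59 for Siglech and -0.51 for Spib, and those of Irf8 (0.45) and Cd209a (0.33) were positive. Relative to that median they were -1.28 for Siglech, -1.20 for Spib, -0.24 for Irf8 and -0.36 for Cd209a. The values relative to that median restate the CPM differences, since the reference shifts all genes of a library alike. Values relative to the median carry no information on leukocyte content.

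Markers of other cell types, some of which express these genes, moved between the same libraries. Their counts are to be read against the 32.3% of all genes called lower and the 29.1% called higher. The 6 markers of pro-B and pre-B cells, which mark marrow precursors, summed to 43.3 to 129 CPM in WT D0, 13.8 to 34.1 in WT D7, 46.4 to 64.0 in Trem2-/- D0 and 7.83 to 16.8 in Trem2-/- D7, and all 6 fell with injury, Vpreb1 among them (log2 fold change -1.503, SE 0.17, limma adjusted p = 6.09e-06; median of the list -1.58). Of 6 B cell markers 5 fell, among them Cd79a (-1.88, SE 0.22, limma adjusted p = 7.74e-06), while Ebf1, chosen for mention after its value was seen, rose. Cd79a, a chain of the B cell receptor, was at 14.2 to 32.5 CPM in WT D7 and at 8.13 to 13.4 in Trem2-/- D7, apart like Siglech and Spib. Of 6 markers of myeloid progenitors 4 fell (Mpo -2.20, SE 0.33, limma adjusted p = 5.14e-05) and 1 rose, and all 5 neutrophil markers fell, with a median of -1.82, which was also the value of S100a8. Of 5 T and NK cell markers tested 4 fell, among them Cd3e (-0.70, SE 0.15, limma adjusted p = 0.00108), and 1 rose (median -0.82). The 7 monocyte and macrophage markers tested were mixed, with 2 lower, such as Ccr2 (-1.19, SE 0.25, limma adjusted p = 0.000871), and 3 higher, such as Adgre1 (1.13, SE 0.13, limma adjusted p = 6.49e-06). Of 5 fibroblast markers 4 rose, and Col1a1 by 3.65 (SE 0.41, limma adjusted p = 4.98e-06). The part of these cells in the values of the 8 genes was not tested.

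How alike the genes were over the 16 libraries was measured as the root mean square difference between log2(CPM + 1) profiles, each centred on its own mean. Siglech and Spib were each other's nearest among the 8, at 0.27, and Irf8 was nearest to Cd209a (0.35) and Flt3 (0.35). Tcf4 stood furthest from Spib, at 1.40. Among all other genes tested, Spib was nearest to Cd79b (0.16), Cd79a (0.18) and Blk (0.19), all genes of B cells, each closer to it than any of the other 7 members. Siglech was nearest to Blk (0.22), Rhoh (0.24) and Ccr9 (0.26), the last a chemokine receptor of plasmacytoid dendritic cells. Irf8 was nearest to Dck (0.12), Adrbk1 (0.15) and Casz1 (0.17), Flt3 to Gpr65 (0.20), A630001G21Rik (0.21) and Fermt3 (0.21), and Cd209a to Upb1 (0.22), Coro7 (0.24) and Ppif (0.25). Tcf4 was nearest to Plcb1 (0.10), Asap2 (0.11) and Mkl2 (0.13). Zbtb46 was nearest to Csrp1 (0.12), Gimap6 (0.13) and S1pr1 (0.14), and Batf3 to Rrp7a (0.13), Ebag9 (0.14) and Chmp7 (0.15), where the member's own root mean square variation was only 0.27 and 0.23. The libraries share depth, composition and the injury, so these distances are a description.

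Per kilobase of exon, the order of the 8 genes changed with injury. At D0 Spib led in both genotypes (21.2 ± 7.57 CPM per kilobase in WT and 16.3 ± 4.13 in Trem2-/-, SD, n = 4), followed by Irf8 and Tcf4. In WT D0 these neighbours overlapped, Spib from 10.7 to 27.7, Irf8 from 7.25 to 11.2 and Tcf4 from 4.16 to 10.5 CPM per kilobase. At D7 Tcf4 led, at 7.77 ± 0.705 in WT (SD, n = 4), overlapping Spib at 7.60 ± 2.12 (SD, n = 4), and at 8.83 ± 0.244 in Trem2-/- (SD, n = 4), above Irf8 at 4.12 ± 0.510 (SD, n = 4) and Spib at 3.06 ± 0.593 (SD, n = 4). Siglech ranked 5 of 8 in both D0 groups and was the lowest in Trem2-/- D7, at 0.262 ± 0.0744 CPM per kilobase (SD, n = 4), below Flt3 at 0.479 ± 0.0785 (SD, n = 4) without overlap. Exon lengths were the union over all annotated transcripts, 27382 bases for Tcf4 and 1583 to 8508 for the others, so a gene with many transcripts is placed low.

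**Figure D3:**
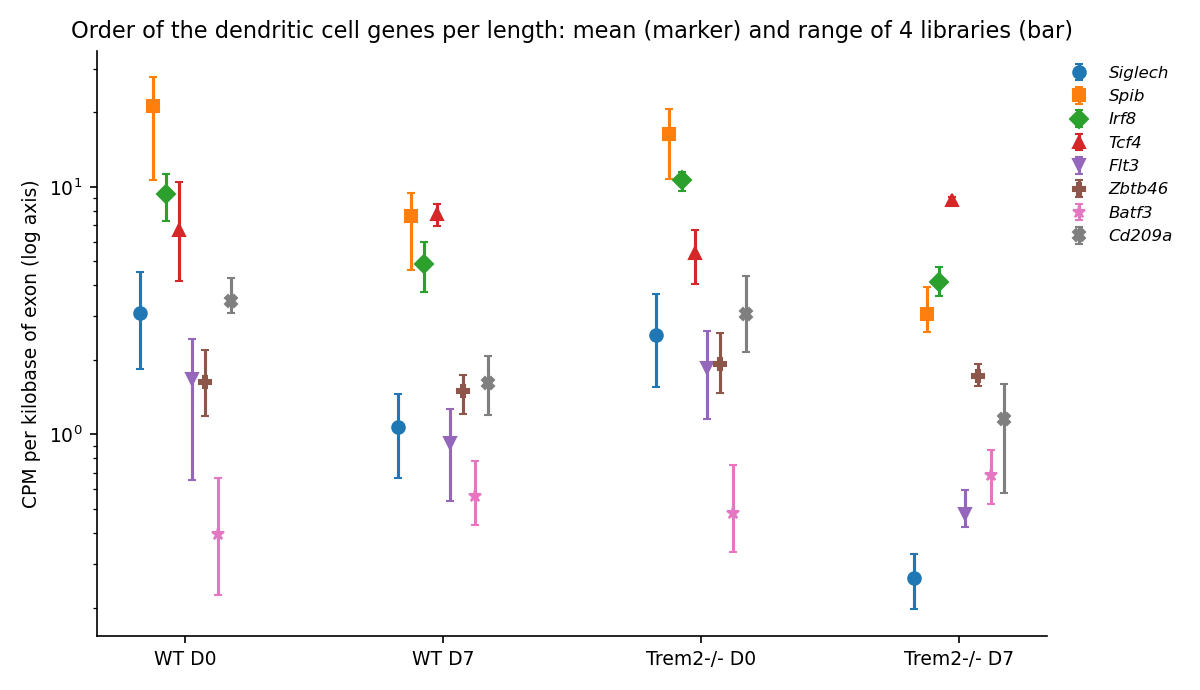
CPM per kilobase of annotated exon (log axis) of the 8 genes in the 4 groups, with the mean as marker and the range of 4 libraries as bar. Spib is highest in both D0 groups and Tcf4 in both D7 groups, and in Trem2-/- D7 Siglech lies below the other 7.

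The counts of other dendritic cell genes are to be read against the 32.3% of all genes that were called lower and the 29.1% called higher. Of 17 further plasmacytoid genes 15 could be tested, and 11 fell and 1 rose with injury averaged over genotypes (median log2 fold change -0.79, against -0.05 over all genes). Ly6d, which marks lymphoid-derived plasmacytoid precursors and B cell precursors, fell most (-1.96, SE 0.19, limma adjusted p = 2.1e-06). Ptprs, a phosphatase of plasmacytoid cells that fibroblasts also express, was the most abundant of the list and the 1 that rose (1.93, SE 0.19, limma adjusted p = 1.99e-06). Bst2 and Tlr7 did not pass (log2 fold changes -0.13 and -0.15). Bst2, Tlr7 and, in the next paragraph, Xcr1 and Clec9a were chosen for mention after their values were seen.

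Of 11 cDC1 genes 9 could be tested, and 3 fell and 1 rose (median -0.22), a share of falls near that of all genes. Wdfy4, which cDC1 need for cross-presentation and which B cells also carry, fell most (-1.32, SE 0.15, limma adjusted p = 6.82e-06), Tlr3 rose (0.52, SE 0.17, limma adjusted p = 0.0162), and Nfil3, the most abundant, fell by 0.22 (SE 0.07, limma adjusted p = 0.0205). The defining cDC1 receptors Xcr1 and Clec9a were low in every group, from 0.834 to 2.07 CPM and from 1.07 to 3.03 CPM, and neither passed (adjusted p = 0.498 and 0.0769 with limma). Of 10 genes of cDC2 and monocyte-derived dendritic cells (moDCs) 8 could be tested, and 6 fell and 0 rose (median -0.56), with Cd7 falling most (-1.39, SE 0.20, limma adjusted p = 3.71e-05) and Notch2 the most abundant (-0.30, SE 0.12, limma adjusted p = 0.0448). Tnip3 had the highest value of that list, 0.10 (SE 0.29, limma adjusted p = 0.771). In that list 0 genes were higher at an unadjusted p under 0.05.

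Of 11 genes of mature, migratory dendritic cells 7 could be tested, and 4 rose and 1 fell (median 0.59). Fscn1, an actin-bundling protein of mature dendritic cells that fibroblasts also make, rose most (1.51, SE 0.23, limma adjusted p = 6.65e-05), and Ccr7, the receptor that guides mature dendritic cells to lymph nodes, fell (-1.13, SE 0.21, limma adjusted p = 0.000324). Of 12 genes of dendritic cell development 8 could be tested, and 6 fell and 0 rose (median -0.65). Ikzf1, the lymphoid and myeloid factor Ikaros, fell most (-1.65, SE 0.20, limma adjusted p = 7.85e-06), Csf2ra, a chain of the GM-CSF receptor and the most abundant of that list, fell by 1.15 (SE 0.13, limma adjusted p = 4.98e-06), and Id3 had the smallest decrease (-0.17, SE 0.19, limma adjusted p = 0.449). Of the 47 genes tested in these 5 lists, limma called 0 between the genotypes at D0, and 1 had an unadjusted p under 0.05.

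**Figure D4:**
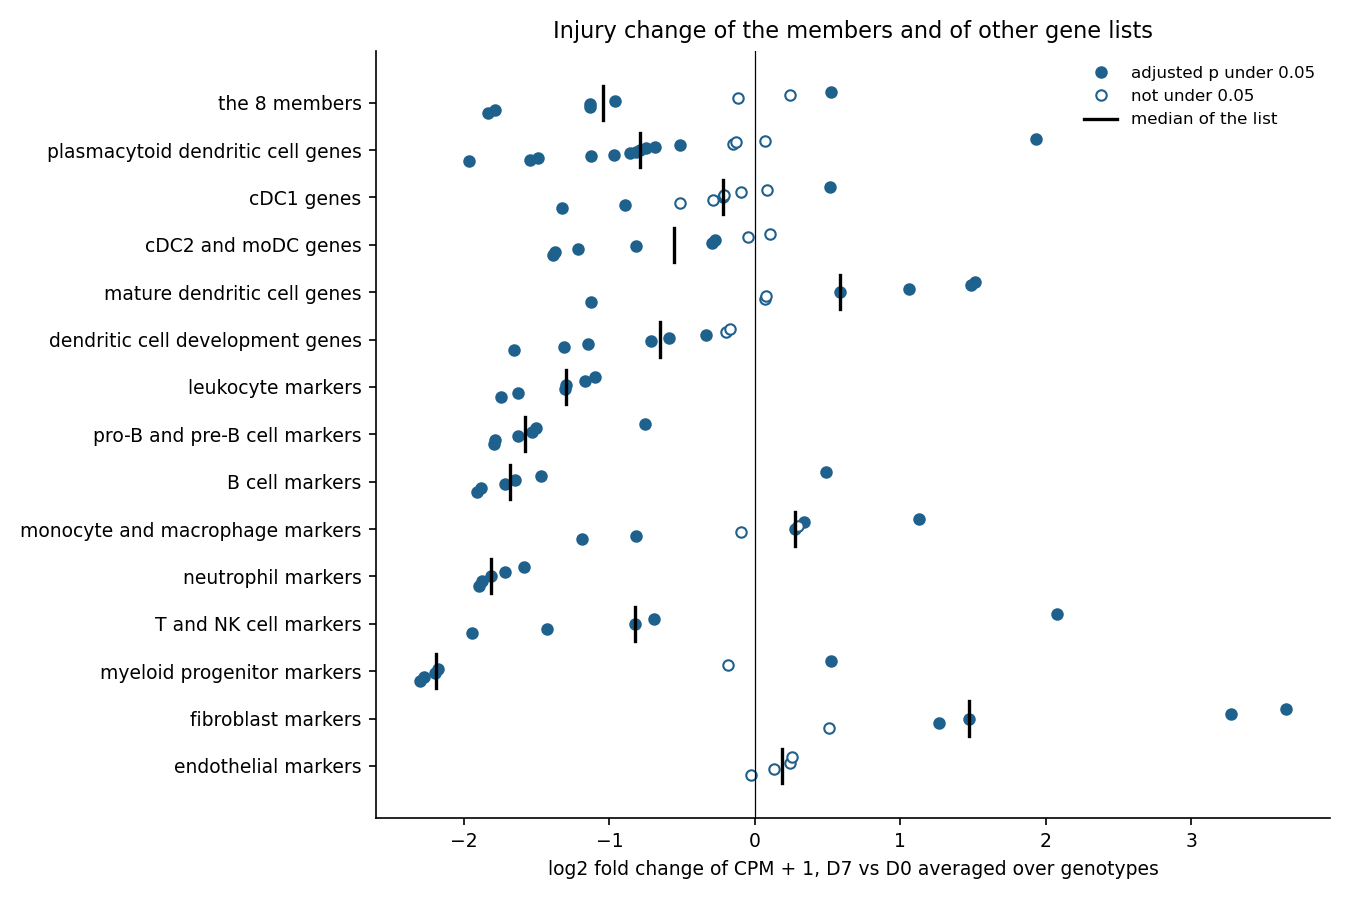
Log2 fold change of CPM + 1, D7 vs D0 averaged over genotypes, of each tested gene of the 8 members, of 5 lists of other dendritic cell genes and of 9 marker lists, filled where the adjusted p was under 0.05, with the median of each list as a line. The medians of the leukocyte, B cell, pro-B, neutrophil and progenitor lists lie further below 0 than that of the 8 genes (-1.05). Those of mature dendritic cell genes (0.59) and of fibroblast (1.47), monocyte and macrophage (0.28) and endothelial markers (0.19) lie above 0.

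Among the WT libraries, D0 replicate 1 stood apart for these genes: it held the lowest value of its group for 6 of the 8, Siglech, Spib, Irf8, Flt3, Batf3 and Cd209a, and the highest for Tcf4 and Zbtb46. Its leukocyte markers were also the lowest of its group, at 2678 CPM, and its pro-B and pre-B markers were at 43.3 CPM against 74.4 to 129 in the others. In WT D7, replicate 4 was the lowest for 6 of the 8 and the highest for Tcf4. Its leukocyte markers summed to 2292 CPM, inside the group's range of 1514 to 3335. Its pro-B and pre-B markers were the lowest of its group, at 13.8 CPM. Without both libraries, a choice made after these values were seen, 5 of the 8 genes were lower and 1 higher on average over genotypes, against 31% and 30.1% of 13094 genes tested. In WT 5 were lower and 0 higher, against 11.8% and 16.4%. The D7 log2 difference between genotypes was -1.43 (SE 0.24) for Siglech and -1.40 (SE 0.20) for Spib. At D0 the difference was -0.46 (SE 0.24) for Siglech and -0.62 (SE 0.20) for Spib.

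**Figure D5:**
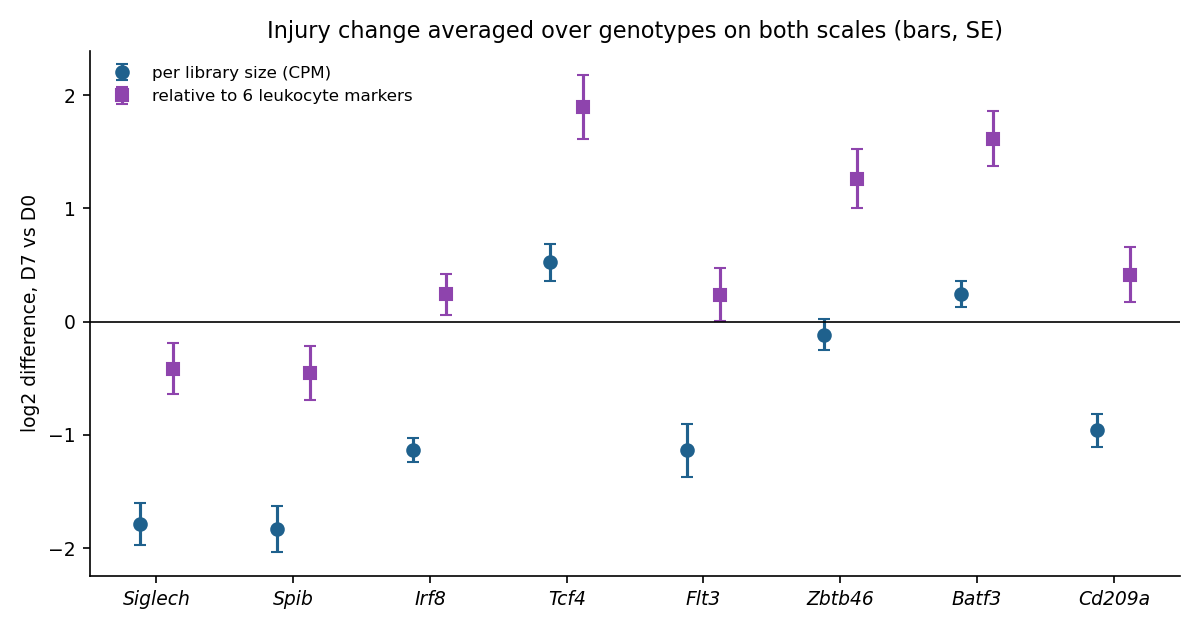
Injury change averaged over genotypes of the 8 genes, as the log2 difference between D7 and D0 with SE bars, on the CPM scale (circles) and relative to the mean of 6 leukocyte markers (squares). The second scale moves the median of all genes up to 1.33, and on it Siglech (-0.41) and Spib (-0.46) stay below 0, while Irf8, Flt3, Cd209a and Zbtb46 lie above 0 but below that median. Positions relative to the median of all genes are the same on both scales by construction.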

How the data were processed

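The 16 bulk RNA-seq libraries were grouped by the genotype and condition of their labels, 4 to a group. The authors aligned reads to mm10 with STAR, counted them with featureCounts and scaled them with the TMM method of edgeR. The deposited signal values are CPM relative to TMM-scaled library size. Versions, annotation, strand setting and the filter on low genes are not given in the sources used here. Reads stranded by the kit, per the methods, may be split differently if counting ignored strand. However, no exon of the 8 genes overlaps an exon of another gene in GENCODE M21.

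Whole reads were recovered from the steps between low values (100% of values whole), giving 11567073 to 32867818 reads per library. A count of 3 reads corresponds to 0.101 to 0.250 CPM, which covers counting error only. No 2 replicates agreed within counting noise (chi-square divided by its degrees of freedom at least 10.7). Log2(CPM + 1) of 13173 genes was fitted with limma 3.58.1 (eBayes with trend, R 4.3.3) with 4 groups as one factor. The same contrasts were also fitted with edgeR 4.0.16, voom and DESeq2 1.42.0 on the recovered reads. The code was tested on simulated data. The 8 genes and the lists were chosen with earlier results of these data known. Beside the 8 genes, the text names, of each list of dendritic cell genes, the most abundant, the largest fall and the largest rise, 11 fixed markers (1 of them is not reported here), Trem2 and the 3 nearest profiles of each gene. Alternatives were the pseudocount, the filter on low values, median-of-ratios scaling, the groups in the fit, the variance trend, a replicate block, each library left out, the count models and the leukocyte reference. Of the 13733 gene symbols, 13428 matched GENCODE M21, which gave positions and exon lengths, and sequences came from RefSeq (GRCm38.p6).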

Additional observations from a re-analysis of the deposited data

Results flagged for a closer look

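In each group of 4 libraries the highest and the lowest value were compared with the rest, for the 8 genes and for 14 list sums, 88 groups of values in all. Chance alone sets about 1 in 20 such groups apart, and 2 were. Cd209a in WT D0 replicate 3 was at 6.80 CPM against 4.90 to 5.17 in the other 3 libraries, a gap of 0.856 of the group's range, which is over the 95% limit of Dixon's test. The pro-B and pre-B cell markers in WT D7 replicate 4 summed to 13.8 CPM against 31.2 to 34.1 in the others, a gap of 0.855 of the range.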

How the results depend on the processing

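The counts for D7 vs D0 and for Trem2-/- vs WT at D0 stayed within 1.5 times under the other pseudocounts, filters, scaling, variance model, count models and replicate block. Relative to the leukocyte markers, 0 genes were lower with injury on average, in WT and in Trem2-/-, and 3, 2 and 4 were higher, against 0.304%, 0.121% and 0.038% of all genes lower and 92.3%, 61.4% and 92.8% higher, and the D7 genotype median of the 8 genes went from -0.29 to 0.39 and that of the interaction from -0.31 to 0.63. With a mean of at least 5 CPM, which drops Cd209a and Batf3, these medians were -0.48 and -0.65. Leaving out 1 library gave 1 to 2 higher and 5 lower genes on average (2 without WT D0 replicate 3 or Trem2-/- D0 replicate 2), and in WT 0 to 1 higher and 4 to 5 lower (1 and 5 without WT D0 replicate 1).

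The leukocyte reference moves every gene by construction, with medians of all genes at 1.33 on average, 0.86 in WT, 1.80 in Trem2-/-, -0.26 at D0, 0.69 at D7 and 0.95 for the interaction. Values that changed sign with it were, on average over genotypes, Irf8 0.24, Flt3 0.24, Zbtb46 1.26 and Cd209a 0.41, in WT Flt3 0.24, Zbtb46 0.80 and Cd209a 0.034, in Trem2-/- Irf8 0.49, Flt3 0.24, Zbtb46 1.72 and Cd209a 0.80, and at D0 Irf8 -0.053, Flt3 -0.051, Zbtb46 -0.042 and Batf3 -0.14. Zbtb46, which was never called on the CPM scale, ran with 1 library left out from -0.23 to 0.040 in WT (above 0 without WT D0 replicate 1), from -0.24 to 0.014 in Trem2-/- (above 0 without Trem2-/- D0 replicate 2) and from -0.18 to -0.044 on average, and was 0.13 in WT and 0.00064 on average without WT D0 replicate 1 and WT D7 replicate 4. Flt3 at D0 ran from -0.14 (without WT D0 replicate 1) to 0.42. The cause of the changes with a library left out was not tested. The D7 difference and the interaction of Siglech moved by over 1.5 times with the count models, as did the injury change of Batf3, and the values stand beside theirs above. A fit with only the groups compared gives no value for the average over genotypes or the interaction.

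Deviations of same-numbered libraries from their group means correlated at r from -0.509 to 0.406 across genes. Differently numbered libraries were not compared, so whether the numbers pair libraries is not settled. With the replicate number as a block, 5 genes were lower and 1 higher on average, 4 and 0 in WT, 5 and 1 in Trem2-/-, and 0 and 0 at D0, and the D7 and interaction medians were -0.29 and -0.31. Batf3 (6 reads in the lowest library) and Siglech in Trem2-/- D7 (8 reads) are limited by depth.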
